A study of Mus musculus with 32 samples.

Results

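The 10 genes Lpl, Cd36, Msr1, Olr1, Fabp4, Fabp5, Plin2, Dgat1, Pnpla2 and Pparg of lipid uptake, binding, storage and release were followed in mouse bone marrow-derived macrophages with and without Trem2. They were taken by name from the 24885 gene identifiers of the count table, with earlier results of these data known. All 10 were found and all 10 passed the filter on low counts, which left 11244 genes. The 32 libraries fell into 8 groups of 4, each a combination of genotype, growth factor and LPS. Wild-type and Trem2-/- cells (T2KO in the labels) both came from C57BL/6 mice. Macrophages were held overnight in complete RPMI in low or normal amounts of M-CSF, a growth factor on which they depend. The protocols give LCCM at 0.5% or 10%, and reading these as low and normal M-CSF is an inference, since no label joins them. In each genotype and medium, 1 group received lipopolysaccharide (LPS), a bacterial cell wall product that activates macrophages, at 10 ng/ml for 4 hours, and 1 group did not.

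Macrophages take up lipid in several ways. Lipoprotein lipase, encoded by Lpl, frees fatty acids from the triglyceride of lipoproteins, while the scavenger receptors CD36, MSR1 and OLR1 bind modified lipoproteins, and CD36 also helps fatty acids to enter. Inside the cell, FABP4 and FABP5 carry fatty acids, DGAT1 joins them into triglyceride, perilipin 2 (Plin2) coats the lipid droplet and the lipase encoded by Pnpla2 starts its breakdown. PPARγ, encoded by Pparg, is a nuclear receptor activated by fatty acids, and Cd36, Fabp4, Lpl and Plin2 are among its known targets. TREM2 is a surface receptor for lipids and lipoproteins on macrophages and microglia.

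Promoter sequence was available from RefSeq (GRCm38.p6) for 5 of the 10 genes, in 7 windows. The 250 bases before each listed start were searched on both strands for 4 motifs, chosen with the sequences and earlier results in view. They were the nuclear receptor half-site AGGTCA, which PPARγ and its partners read in pairs, the AP-1 site TGANTCA and the NF-κB consensus, both read by factors that LPS activates, and the E-box CACGTG. The following 30-base stretches are shown because PPARγ targets, the gene with the widest LPS response and the droplet lipase each held one of these motifs. Capitals mark the match along the strand of the gene, and TGACCT is AGGTCA on the opposite strand.
Cd36 half-site: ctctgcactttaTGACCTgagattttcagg
Plin2 half-site: tttcaggaccccTGACCTaagtcagacagc
Olr1 AP-1: cccgcgacggtTGAGTCAtcctctgctaga
Pnpla2 NF-κB: gctgaagcctGGGAATCCCCtctccaggtc
The Cd36 stretch lay at chr5:17836107-17836136 on the minus strand, inside the annotated span of the gene and before the start of a shorter transcript. The Plin2 stretch was at chr4:86670260-86670289 on the minus strand, upstream of the gene. The Olr1 stretch was at chr6:129507207-129507236 on the minus strand, inside the span of a longer transcript, and the Pnpla2 stretch was at chr7:141455015-141455044 on the plus strand, upstream of the gene. A half-site was present in 4 of the 5 genes, Cd36, Olr1, Plin2 and Pparg, counted by gene over 7 windows. Counted by window, it was found in 14% of all 32851 promoter windows, against 6.7% for AP-1, 7.3% for NF-κB and 6.0% for the E-box. The E-box was in none of these members' windows. Plin2 also held an NF-κB match, in a stretch at chr4:86670163-86670192 on the minus strand that is not printed. A match, or its absence from a window, concerns these letters only, and nothing here measured binding.

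Depth ranged from 3068863 to 15585423 counts per library, with 10799 to 13314 genes detected. Levels are given as CPM, counts scaled to a common library size, after scaling by the trimmed mean of M-values (TMM), a factor that sets the bulk of genes equal between libraries. A count of 0 allows up to 3 counts at 95% confidence, or 0.163 to 1.46 CPM depending on the library, for counting error only. The TMM factors followed the groups: 1.15 to 1.37 without LPS, 0.903 to 1.01 with LPS in normal M-CSF and 0.598 to 0.752 with LPS in low M-CSF. Scaling by library totals alone lowered the median log2 difference of all genes by 0.43 to 0.942 in the LPS comparisons and by 0.463 to 0.557 for the medium with LPS. It moved the medium comparisons without LPS by up to -0.13 and the genotype comparisons by up to -0.174. In most groups library 1 was close to library 3, and 2 to 4: in 14 of these 16 pairs a chi-square of the counts was 4.03 to 9.5 times its degrees of freedom, and up to 37.3 times in the rest, against 9.73 to 81.5 in the 32 other pairs. The labels do not say whether libraries came from separate mice or cultures, so each p measures the spread between these libraries, and calls lost when 1 was summed with 3 and 2 with 4 are named below. Trem2 checked the genotype labels: its 16 wild-type libraries held 194 to 516 CPM and its 16 knockout libraries held 3.65 to 132 CPM, highest in low M-CSF without LPS (98.9 to 132 CPM), and 3' reads do not show which part of the transcript was kept.

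The 8 macrophage markers summed to 4390 to 11200 CPM, and the 8 adipocyte markers to 2.32 to 20.5 CPM with Lep and Plin1 at 0 in all libraries. Lymphocyte markers reached at most 1.28 CPM, dendritic cell markers 21.4, stromal markers 22.2, endothelial markers 50.7 and osteoclast markers 74.4. The 11 neutrophil genes (10 in the table) summed to 71 to 434 CPM, highest in knockout cells in low M-CSF with LPS. The 5 monocyte markers summed to 429 to 506 CPM in wild-type macrophages in low M-CSF without LPS, against 138 to 174 CPM in the matching knockout cells and 85.2 to 210 CPM in the other groups. The 5 monocyte genes did not move together in the test described below. Knockout against wild-type in low M-CSF without LPS, 2 were lower, 1 was higher and 2 did not pass (16.7% of all genes passed). Low against normal M-CSF in wild-type macrophages without LPS, 3 were lower and 1 was higher (44.3%). The part of these cell types in the results was not tested. In bulk RNA, fewer cells of one kind and less RNA per cell cannot be told apart.

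All comparisons below come from 1 edgeR quasi-likelihood fit over the 8 groups, with p adjusted by Benjamini-Hochberg over all 11244 genes and called at 0.05. Knockout against wild-type macrophages, 2 of the 10 genes passed in normal M-CSF without LPS, both lower, where 1.86% of all genes passed. With LPS, 3 passed, all lower, beside 4.04% of all genes. In low M-CSF without LPS, 2 were higher and 2 lower (16.7% of all genes passed), and with LPS 1 was higher and 3 lower (19.1%). The members' median log2 difference was -0.28, -0.32, -0.29 and 0.05 in these comparisons in turn, beside -0.01, 0.00, 0.07 and -0.05 over all genes.

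Low against normal M-CSF moved 4 members of wild-type macrophages without LPS (1 higher, 3 lower, with 44.3% of all genes passing) and 5 with LPS (3 higher, 2 lower, 45.6%). In knockout cells it moved 6 without LPS (2 higher, 4 lower, 48.2%) and 5 with LPS (3 higher, 2 lower, 59.2%). These shares lay near those of all genes. With library totals alone the medium comparisons with LPS had 2 members higher and 4 lower in wild-type macrophages, and 2 higher and 6 lower in knockout cells. Under this scaling 6058 and 7169 of the 11244 genes passed in turn, and 19.3% and 23% of those calls were higher.

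LPS moved 5 members of wild-type macrophages in normal M-CSF (3 higher, 2 lower, 36.1% of all genes passing) and 6 in low M-CSF (4 higher, 2 lower, 60.7%). In knockout cells it raised 4 in normal M-CSF (42.7%), and in low M-CSF 4 were higher and 4 lower (67.5%). The split depended on scaling. With library totals alone it became 3 higher and 3 lower, then 4 and 4, in wild-type macrophages, and 2 higher and 4 lower, then 4 and 6, in knockout cells. Under this scaling 5713, 8344, 6652 and 9330 of the 11244 genes passed in these comparisons in turn. Of those calls 21.5%, 19%, 19.5% and 17% were higher.

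**Figure D1:**
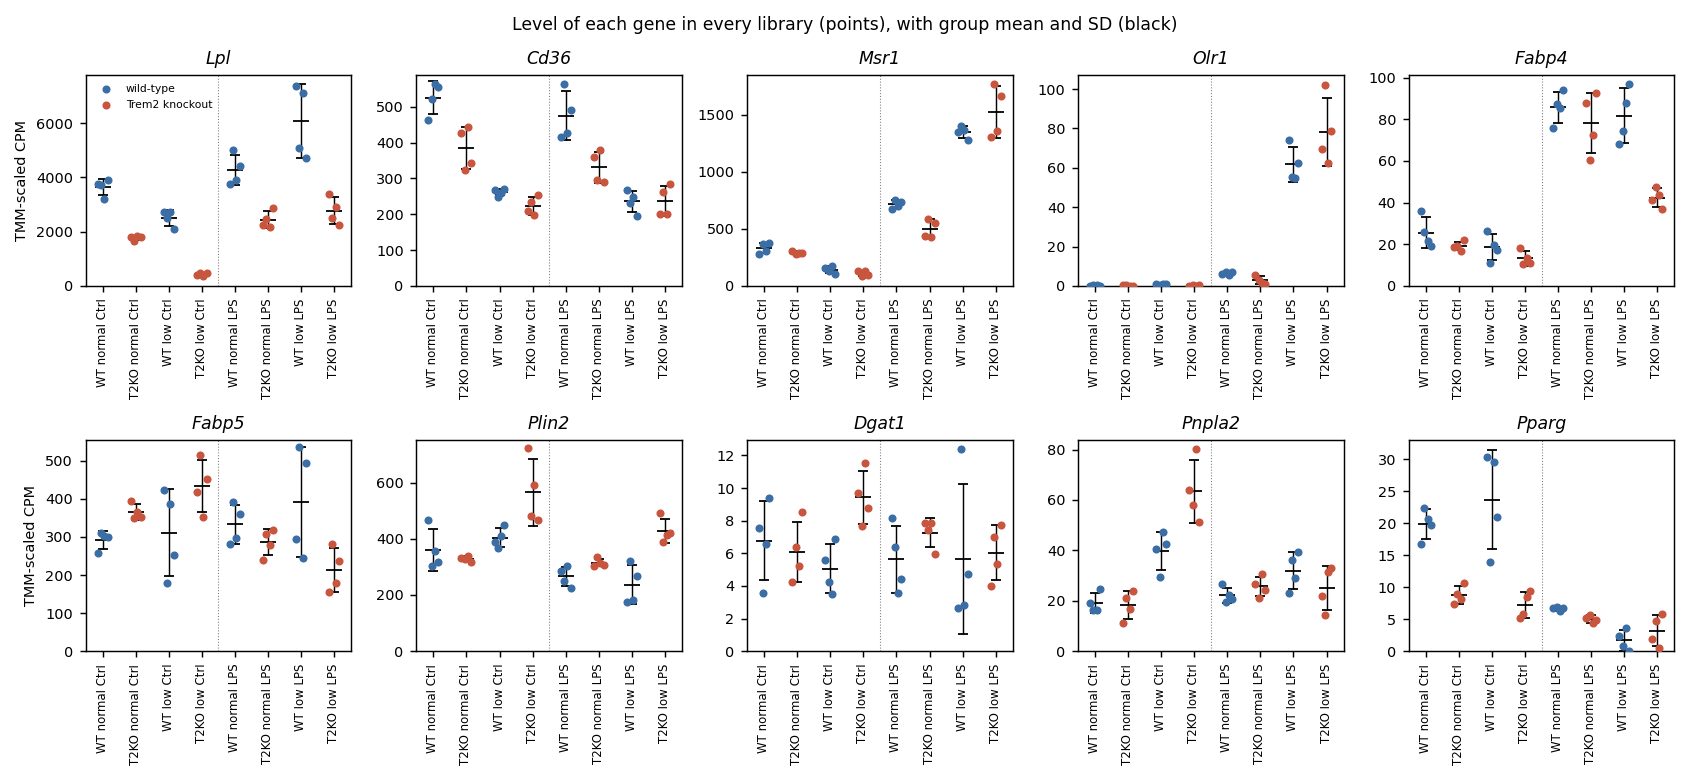
Level of the 10 genes in all 32 libraries, in TMM-scaled CPM on linear axes that start at 0; points are libraries (blue wild-type, red Trem2 knockout), black bars the group mean and SD, and the dotted line separates groups without LPS (left) from those with LPS. Lpl was lower in knockout than in wild-type libraries in every matched pair of groups, and Olr1 stood out in low M-CSF with LPS, at 54.9 to 102 CPM.

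Lpl, the secreted lipase, was lower in knockout cells in all 4 conditions. The gene lies on chromosome 8, from 68880555 to 68906932 (GRCm38). In low M-CSF without LPS its 4 knockout libraries held 407, 479, 370 and 468 CPM and its 4 wild-type libraries 2726, 2485, 2713 and 2110 CPM. The knockout level, 431 ± 51.8 CPM (SD, n = 4), was the lowest of the 8 groups, and the groups did not overlap. The log2 difference was -2.54 ± 0.17 (SE; edgeR adjusted p = 6.75e-14). With LPS in the same medium, knockout libraries held 3402, 2511, 2919 and 2244 CPM and wild-type libraries 7365, 5098, 7129 and 4705 CPM, again without overlap (-1.13 ± 0.16, edgeR adjusted p = 4.3e-06). Libraries 1 and 3 were the higher ones in both genotypes.

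In normal M-CSF the Lpl difference was smaller. Without LPS, knockout libraries held 1809, 1673, 1821 and 1792 CPM against 3750, 3735, 3203 and 3914 CPM (-1.04 ± 0.16, edgeR adjusted p = 4.87e-05). With LPS they held 2257, 2468, 2176 and 2871 CPM against 3757, 5000, 3909 and 4412 CPM (-0.81 ± 0.16, edgeR adjusted p = 0.00145). Neither pair of groups overlapped. Both normal-medium calls were lost when libraries were summed in pairs (edgeR adjusted p = 0.168 and 0.286), while the low-medium calls stayed (1.2e-05 and 0.024). Without LPS, the difference between genotypes was larger in low than in normal M-CSF, by -1.5 ± 0.22 on the log2 scale (edgeR adjusted p = 2.78e-05, lost at 0.0639 in pairs), in an interaction that 4.62% of all genes passed and no other member did.

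Without LPS, low M-CSF lowered Lpl by -2.04 ± 0.16 (log2) in knockout cells (edgeR adjusted p = 6.72e-13) and by -0.54 ± 0.16 in wild-type macrophages (edgeR adjusted p = 0.00534, lost at 0.166 in pairs). With LPS in low M-CSF it rose in both genotypes, by 1.27 ± 0.16 in wild-type macrophages (edgeR adjusted p = 1.23e-08) and by 2.68 ± 0.17 in knockout cells (1.27e-16). In normal M-CSF the LPS difference of knockout cells was 0.46 ± 0.16 (edgeR adjusted p = 0.017), but it changed sign to -0.07 with library totals alone, where the median of all genes was -0.58. That call was also lost without knockout library 2 of the untreated group or library 4 of the LPS group (edgeR adjusted p = 0.0608 to 0.0848), with no filter and in pairs (0.211). The medium difference with LPS in wild-type macrophages, 0.51 ± 0.16 (edgeR adjusted p = 0.00836, lost at 0.163 in pairs), was 0.04 with library totals alone. In knockout cells with LPS it was 0.18 and did not pass (edgeR adjusted p = 0.332). There it passed in opposite directions with DESeq2 (0.35, adjusted p = 0.0391) and with library totals alone (-0.38, edgeR adjusted p = 0.0232). In order of level, the top 6 groups formed a chain in which neighbours overlapped, and only knockout cells without LPS stood apart, in normal M-CSF at 1774 ± 68.2 CPM and then in low M-CSF.

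Genes that act with lipoprotein lipase were followed as a list of 13, of which 8 were tested. Between genotypes, 1 of the 8 was lower in each of the 4 conditions, and that was Sdc1, a heparan sulfate carrier on which lipase can dock. In low M-CSF without LPS 2 were higher, Angptl4 and Apoc2, and in normal M-CSF with LPS 1 was, Lipg, where 16.7% and 4.04% of all genes passed. Sdc1 stood at 6.27 ± 1.77 CPM in knockout against 54.3 ± 16.3 CPM in wild-type macrophages in low M-CSF with LPS (log2 -3.13 ± 0.29, edgeR adjusted p = 8.56e-10). It was lower by 3.03 in low M-CSF without LPS, and by 1.81 and 1.70 in normal M-CSF without and with LPS on the log2 scale, and all of these differences passed with libraries summed in pairs (edgeR adjusted p up to 0.0278). Angptl4, an inhibitor of the lipase, was higher in knockout cells in low M-CSF without LPS, at 15.1 ± 4.16 against 4.20 ± 1.87 CPM (log2 1.84 ± 0.46, edgeR adjusted p = 0.00468). Low medium raised it in knockout cells from 0.763 ± 0.543 CPM (log2 4.17 ± 0.53, edgeR adjusted p = 1.11e-07). With LPS, Angptl4 had a count of 0 in all 8 libraries in normal M-CSF and in 6 of the 8 in low M-CSF.

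Apoc2, the lipase's activator, was higher in low M-CSF. It stood at 96.6 ± 25.6 CPM in low and 5.54 ± 2.52 CPM in normal M-CSF in knockout cells without LPS (log2 4.16 ± 0.29, edgeR adjusted p = 1.85e-14). Wild-type cells without LPS had 58 ± 12.8 and 8.33 ± 2.46 CPM. Its genotype difference in low M-CSF without LPS, 0.73 ± 0.24 (edgeR adjusted p = 0.0343), was lost without knockout library 1 or 3 or wild-type library 1 or 2 (0.0797 to 0.148), with the compared groups alone and in pairs (0.195). Lipg, a related endothelial lipase, went from 0.845 ± 0.277 to 343 ± 122 CPM with LPS in knockout cells in low M-CSF (log2 8.74 ± 0.41, edgeR adjusted p = 3.3e-20), and to 64.4 to 208 CPM on average in the other LPS groups. Its genotype difference in normal M-CSF with LPS, 0.95 ± 0.28 (edgeR adjusted p = 0.0427), was lost without any one of its 8 libraries (0.0622 to 0.162), with a replicate block, with library totals alone and in pairs (0.348). Lmf1, which helps the lipase to mature, passed the edgeR test in 2 of the 12 pairwise comparisons, both in knockout cells: lower with LPS in low M-CSF (log2 -0.75, lost in pairs at an adjusted p of 0.083) and lower in low M-CSF with LPS (-1.10). Gpihbp1, its endothelial anchor, was too low to be tested, at 0.33 CPM or less in each group.

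Among the receptors, Cd36 followed the medium. Low medium held less Cd36 in both genotypes, with and without LPS. The gene lies on chromosome 5, from 17781690 to 17888959. Without LPS, wild-type libraries held 266, 249, 260 and 270 CPM in low and 463, 522, 563 and 554 CPM in normal M-CSF, and knockout libraries 208, 234, 199 and 253 against 427, 323, 442 and 344 CPM. No groups overlapped between media. The log2 differences were -1.01 ± 0.15 in wild-type macrophages without LPS (edgeR adjusted p = 1.55e-06), -1.01 ± 0.15 with LPS (1.84e-06), -0.78 ± 0.15 in knockout cells without LPS (5.48e-05) and -0.49 ± 0.15 with LPS (0.00648, lost at 0.157 with libraries in pairs, and with RLE size factors).

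In the edgeR fit, Cd36 passed between genotypes in 1 condition. With LPS in normal M-CSF, knockout libraries held 359, 296, 378 and 291 CPM and wild-type libraries 416, 564, 426 and 491 CPM. The groups did not overlap, and the log2 difference was -0.52 ± 0.15 (edgeR adjusted p = 0.0428). The call was lost without knockout library 1, 2 or 4 or wild-type library 2 or 4 (edgeR adjusted p = 0.0551 to 0.173), with a replicate block, with no filter and in pairs (0.621). Without LPS in normal M-CSF the genotypes did not overlap either, at 323 to 442 CPM in knockout and 463 to 563 CPM in wild-type libraries. That difference passed with DESeq2 (log2 -0.46, adjusted p = 0.0421) but not in the edgeR fit. LPS itself gave no call for Cd36 under TMM scaling, with log2 differences of -0.21 to 0.08. With library totals alone all 4 passed and were lower, at -0.92 to -0.58, and in knockout cells in low M-CSF this turned 0.08 into -0.86, beside an all-gene median of -1.30.

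Msr1, the class A scavenger receptor of acetylated lipoproteins, rose with LPS in all 4 settings. Its gene lies on chromosome 8, from 39543232 to 39642750. In low M-CSF, knockout libraries went from 131, 89.3, 128 and 94.8 CPM to 1305, 1767, 1354 and 1667 CPM, and wild-type libraries from 160, 127, 170 and 105 to 1349, 1402, 1363 and 1277 CPM. The genotypes overlapped with LPS in this medium, where their difference was 0.18 ± 0.16 (log2, edgeR adjusted p = 0.47). The LPS differences were 3.78 ± 0.18 in knockout (edgeR adjusted p = 2.97e-20) and 3.26 ± 0.17 in wild-type macrophages (1.42e-18). In normal M-CSF the levels went from 289 ± 13.6 to 500 ± 82.3 CPM in knockout cells (0.79 ± 0.16, edgeR adjusted p = 0.000106) and from 334 ± 45.1 to 715 ± 35.2 CPM in wild-type macrophages (1.10 ± 0.16, 5.87e-07). The former fell to 0.26 with library totals alone and did not pass (edgeR adjusted p = 0.172). Between genotypes in normal M-CSF with LPS, knockout libraries held 425 to 589 CPM and wild-type libraries 671 to 752 CPM, without overlap. Their difference did not pass in the fit over the 8 groups. It passed with the compared groups alone (log2 -0.52, edgeR adjusted p = 0.0206) and library totals alone (-0.60, 0.0249), and with DESeq2 (-0.51, adjusted p = 0.0197). It also passed without knockout library 2 (-0.61, edgeR adjusted p = 0.0413).

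The effect of the medium on Msr1 had opposite signs with and without LPS. Without it, low M-CSF held less, by -1.25 ± 0.16 in wild-type and -1.39 ± 0.16 in knockout cells on the log2 scale (edgeR adjusted p = 9.21e-08 and 6.04e-09). With LPS, low M-CSF held more, by 0.92 ± 0.16 and 1.61 ± 0.16 (edgeR adjusted p = 1.6e-05 and 2.07e-10). These 4 calls and the interactions of medium and LPS were kept under all settings, pairs and library totals included.

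Olr1, the receptor of oxidised LDL, was near the counting limit without LPS and rose with it in all settings. Its gene lies on chromosome 6, from 129479150 to 129507350, and overlaps a long noncoding RNA, Gm45969, that had no row in the table. Without LPS, the 16 libraries held 0 to 7 counts each. In low M-CSF with LPS, knockout libraries held 69.8, 102, 62.5 and 78.6 CPM and wild-type libraries 74.2, 55.4, 54.9 and 62.4 CPM. The genotypes overlapped there. The log2 differences with LPS were 8.27 ± 0.42 in knockout cells (edgeR adjusted p = 2.98e-19) and 6.35 ± 0.39 in wild-type macrophages (7.56e-17), and their sizes rest on the few counts without LPS.

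In normal M-CSF with LPS, Olr1 reached 5.68, 3.21, 1.52 and 0.996 CPM in knockout and 6.06, 6.83, 5.50 and 6.92 CPM in wild-type libraries. Knockout library 1 overlapped the wild-type range. The log2 rise was 3.43 ± 0.54 in knockout (edgeR adjusted p = 2.1e-06) and 4.32 ± 0.42 in wild-type macrophages (7.59e-11). Between genotypes the difference was -1.24 ± 0.35 (edgeR adjusted p = 0.0351), which was lost without knockout library 3 or 4 or wild-type library 1, 2 or 4 (0.0579 to 0.172), with the compared groups alone and in pairs (0.116). With LPS, low M-CSF held more than normal M-CSF, by 3.29 ± 0.30 in wild-type and 4.87 ± 0.34 in knockout cells (edgeR adjusted p = 9.68e-11 and 3.15e-14), without overlap.

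Other uptake receptors were a list of 16, of which 14 were tested. Without LPS, 5 were higher and 4 lower in low M-CSF in wild-type macrophages, and 6 higher and 3 lower in knockout cells, where 44.3% and 48.2% of all genes passed. With LPS in low M-CSF, 4 were higher and 8 lower in wild-type macrophages (60.7% of all genes passed) and 4 higher and 10 lower in knockout cells (67.5%). Marco, a scavenger receptor of the same class as Msr1, rose with LPS in low M-CSF from 2.73 ± 1.24 to 286 ± 49.0 CPM in wild-type macrophages (log2 6.68, edgeR adjusted p = 3e-21) and from 11.7 ± 2.21 to 333 ± 67.2 CPM in knockout cells (4.81, 5.08e-19). Its level without LPS in low M-CSF was higher in knockout cells, by 2.08 ± 0.27 on the log2 scale (edgeR adjusted p = 2.11e-07), and the groups did not overlap. Scarb1, the HDL receptor, was lower with LPS in low M-CSF, by 1.48 in knockout and 1.44 in wild-type macrophages on the log2 scale (edgeR adjusted p = 8.98e-07 and 1.49e-06). Vldlr was higher in low M-CSF without LPS, at 8.84 ± 3.30 against 0.516 ± 0.371 CPM in knockout cells (log2 3.99 ± 0.59, edgeR adjusted p = 6.5e-07).

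**Figure D2:**
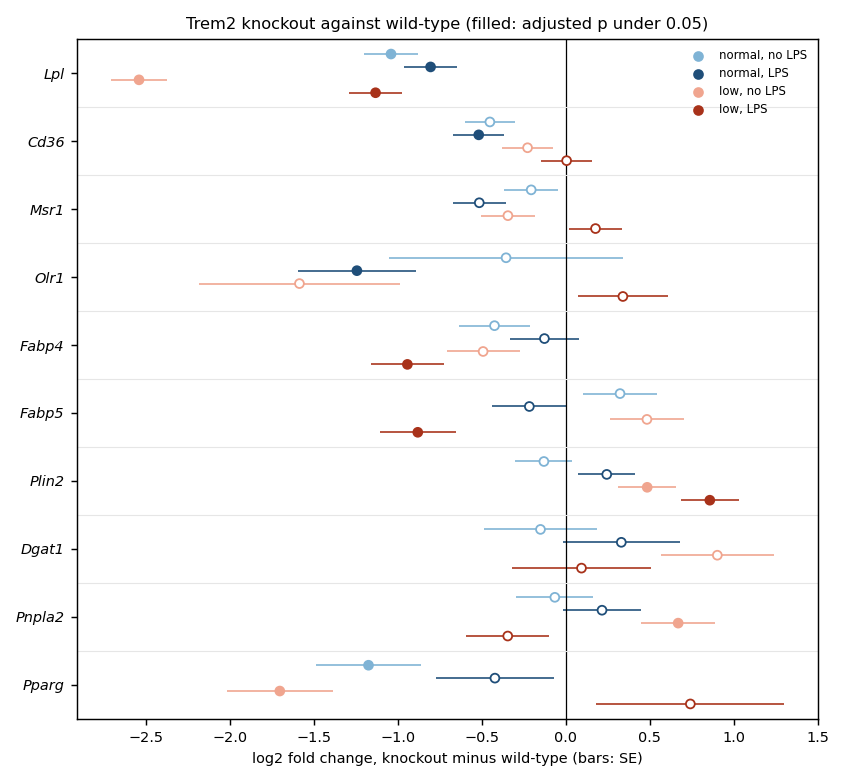
Log2 difference of Trem2 knockout minus wild-type for each gene in the 4 conditions, with SE bars; filled points passed the edgeR test at an adjusted p of 0.05 and open points did not. Lpl lay below 0 in all 4 conditions, between -2.54 and -0.81, while Pparg passed only without LPS.

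The fatty acid carriers differed from each other. Fabp4, on chromosome 3 from 10204342 to 10208616, rose with LPS in all 4 settings, whereas Fabp5, 188 kb away (10012585 to 10016610), fell in 1 of them under TMM scaling. In low M-CSF with LPS, Fabp4 stood at 41.4, 47.6, 43.5 and 36.9 CPM in knockout and at 67.9, 74.4, 87.6 and 97.1 CPM in wild-type libraries. The knockout libraries all lay below the wild-type ones (log2 -0.94 ± 0.22, edgeR adjusted p = 0.00197, lost at 0.0653 in pairs). The LPS differences were 1.69 ± 0.22 in knockout and 2.14 ± 0.22 in wild-type macrophages in low M-CSF (edgeR adjusted p = 2.35e-08 and 1.12e-10), and 2.03 ± 0.21 and 1.74 ± 0.21 in normal M-CSF (4.18e-10 and 1.14e-08). With library totals alone they were smaller and all still passed, the first at 0.73.

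Among LPS groups, knockout cells held less Fabp4 in low than in normal M-CSF, at 42.3 ± 4.48 against 78.2 ± 14.6 CPM (log2 -0.88 ± 0.21, edgeR adjusted p = 0.000537). Wild-type cells with LPS stood at 81.7 ± 13.1 and 85.6 ± 7.57 CPM. The medium difference without LPS in knockout cells, -0.54 ± 0.22 (edgeR adjusted p = 0.0378), was lost without any one of 6 of its 8 libraries, low-medium libraries 2 to 4 and normal-medium libraries 1, 2 and 4 (0.0724 to 0.161), with no filter and in pairs (0.137).

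Fabp5 fell with LPS in knockout cells in low M-CSF, from 419, 516, 352 and 452 CPM to 156, 281, 178 and 237 CPM, without overlap (log2 -1.03 ± 0.22, edgeR adjusted p = 0.000132). Wild-type libraries in the same medium held 423, 180, 388 and 253 CPM without LPS and 295, 535, 244 and 494 CPM with it. Libraries 1 and 3 and libraries 2 and 4 of these wild-type groups ran together, and the groups overlapped (0.33 ± 0.22, edgeR adjusted p = 0.194). This difference was -0.42 with library totals alone and did not pass (0.0935), and Fabp5 also fell under this scaling with LPS in knockout cells in normal M-CSF, by -0.88 (edgeR adjusted p = 0.00121, against -0.35 and 0.204 under TMM). With LPS, Fabp5 was lower in knockout than in wild-type macrophages, by -0.88 ± 0.23 (edgeR adjusted p = 0.00519), although the ranges overlapped and the call was lost in pairs (0.156). RefSeq lists a pseudogene of Fabp5, Fabp5l2, so some of its reads may have been assigned there.

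Of 11 other binding and activation genes, 9 were tested. With LPS in low M-CSF, 6 were higher and 2 lower in knockout cells (67.5% of all genes passed), and 4 higher and 3 lower in wild-type macrophages (60.7%). Fabp3, another carrier of the family, was raised by LPS in all 4 settings, in normal M-CSF from 2.30 ± 0.77 to 15.9 ± 4.12 CPM in knockout cells (log2 2.79, edgeR adjusted p = 2.38e-08) and from 2.31 ± 1.51 to 12.5 ± 2.16 CPM in wild-type macrophages (2.40, 3.08e-07). In low M-CSF it was raised by 1.91 in knockout and by 1.12 in wild-type macrophages (edgeR adjusted p = 5.5e-06 and 0.00729), and the last did not pass with library totals alone.

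Plin2, the droplet coat protein, was higher in knockout cells in low M-CSF with LPS. Its gene lies on chromosome 4, from 86626910 to 86670217, and overlaps a pseudogene, Gm12551, with no row in the table. With LPS, knockout libraries held 491, 388, 413 and 419 CPM and wild-type libraries 176, 321, 182 and 267 CPM. The groups did not overlap (log2 0.86 ± 0.17, edgeR adjusted p = 0.000577, lost at 0.0846 in pairs). Without LPS they held 724, 480, 591 and 466 CPM against 389, 368, 410 and 449 CPM, also without overlap (0.48 ± 0.17, edgeR adjusted p = 0.0457). This second call was lost without knockout library 1 or 3 or wild-type library 1, 2 or 3 (0.0728 to 0.224), and in 6 of the 7 other settings: a replicate block, RLE size factors, library totals alone, no filter, the compared groups alone and pairs (0.395). Of these settings DESeq2 alone kept it (adjusted p = 0.041).

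Low medium raised Plin2 in knockout cells without LPS (log2 0.78 ± 0.17, edgeR adjusted p = 0.000267), while wild-type macrophages differed by 0.17 ± 0.17 (0.454). The difference of these differences was 0.61 ± 0.24 and did not pass (edgeR adjusted p = 0.161). With LPS the medium difference in knockout cells was 0.44 ± 0.17 (edgeR adjusted p = 0.0259), turned to -0.11 with library totals alone and was lost without low-medium library 1 (0.071), with no filter and in pairs (0.179). LPS lowered Plin2 in wild-type macrophages in low M-CSF, from 404 ± 34.8 to 236 ± 69.8 CPM (-0.78 ± 0.17, edgeR adjusted p = 0.000207). Its other LPS calls, -0.44 in wild-type macrophages in normal M-CSF and -0.40 in knockout cells in low M-CSF (edgeR adjusted p = 0.0419 and 0.0366), were each lost in pairs (0.341 and 0.279). The first was lost without untreated library 1 or 3 or LPS library 1, 2 or 4 (0.0513 to 0.169), with no filter and with a replicate block. The second was lost without untreated library 1 or LPS library 2, 3 or 4 (0.0568 to 0.138), with RLE size factors, DESeq2 and the compared groups alone. With library totals alone, LPS also lowered Plin2 in knockout cells in normal M-CSF (log2 -0.59, edgeR adjusted p = 0.00692). Under this scaling low medium also lowered it in wild-type macrophages with LPS (-0.62, edgeR adjusted p = 0.00525). The all-gene medians beside these were -0.58 and -0.56, and neither difference passed under TMM scaling.

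Dgat1, the last enzyme of triglyceride synthesis, did not pass in any of the 18 comparisons of the edgeR fit. Its gene lies on chromosome 15, from 76502012 to 76512021. Group means ran from 5.05 ± 1.5 CPM in wild-type to 9.44 ± 1.63 CPM in knockout cells, both in low M-CSF without LPS. These 2 groups did not overlap (log2 0.90 ± 0.34, edgeR adjusted p = 0.0612). The difference passed with DESeq2 (adjusted p = 0.0482), with the compared groups alone (edgeR adjusted p = 0.0408) and without wild-type library 4 (0.0452). With library totals alone LPS lowered Dgat1 in knockout cells in low M-CSF (log2 -1.61, edgeR adjusted p = 0.000192), beside an all-gene median of -1.30. Its interaction of medium and LPS in knockout cells also passed there (-1.355, edgeR adjusted p = 0.0308). Dgat2, an unrelated enzyme for the same step, was higher with LPS in low M-CSF, at 6.04 ± 1.77 against 0.506 ± 0.396 CPM in knockout and 5.66 ± 1.55 against 0.471 ± 0.667 CPM in wild-type macrophages (log2 3.67 and 3.56, edgeR adjusted p = 3.53e-05 and 0.000126).

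Pnpla2, the lipase that starts droplet breakdown, was higher in low M-CSF without LPS. Its gene lies on chromosome 7, from 141455188 to 141460743. Knockout libraries held 64.1, 57.9, 80.4 and 51.1 CPM in low and 11.1, 21.2, 16.9 and 24 CPM in normal M-CSF, and wild-type libraries 40.4, 29.3, 47.2 and 42.4 against 19.1, 16.4, 16.3 and 24.7 CPM. Neither genotype's media overlapped (log2 1.80 ± 0.23 and 1.06 ± 0.23, edgeR adjusted p = 4.04e-08 and 0.000229). With LPS, knockout cells in low M-CSF held 21.9, 14.3, 31.5 and 33.0 CPM, all below the untreated libraries (-1.34 ± 0.24, edgeR adjusted p = 6.32e-06). Wild-type macrophages in low M-CSF went from 39.85 ± 7.6 to 31.99 ± 7.28 CPM with LPS, which did not pass. With library totals alone this fall passed (log2 -1.08, edgeR adjusted p = 0.00027), beside an all-gene median of -0.94. The higher level in knockout than wild-type macrophages in low M-CSF without LPS, 0.67 ± 0.22 (edgeR adjusted p = 0.0337), was lost without knockout library 1 or 3 or wild-type library 1 or 2 (0.0638 to 0.145) and in pairs (0.191). With LPS, the medium difference did not pass in either genotype. In wild-type macrophages low M-CSF held more with RLE size factors (log2 0.63, edgeR adjusted p = 0.0294), the compared groups alone (0.0462) and DESeq2 (adjusted p = 0.0223). In knockout cells low M-CSF held less with library totals alone (-0.59, edgeR adjusted p = 0.045).

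Abhd5, the activator of this lipase, did not follow it. It was lower in low M-CSF in both genotypes with and without LPS, by 0.91 to 1.51 on the log2 scale, for example at 16.9 ± 4.03 against 37.2 ± 4.27 CPM in knockout cells without LPS (-1.14, edgeR adjusted p = 1.6e-05). G0s2, its inhibitor, was not tested and stood at 1.40 CPM or less in each group. Of 26 other genes of triglyceride synthesis and droplets, 16 were tested, and with LPS in low M-CSF 4 were higher and 7 lower in knockout cells and 6 higher and 5 lower in wild-type macrophages, near the shares of all genes that passed (67.5% and 60.7%). Lpin1, which makes the diglyceride that DGAT enzymes use, went from 200 ± 34.5 to 1.64 ± 1.55 CPM with LPS in knockout cells in low M-CSF (log2 -6.98 ± 0.37, edgeR adjusted p = 8.1e-19) and from 140 ± 11.2 to 3.46 ± 1.28 CPM in wild-type macrophages (-5.34, 1.63e-16). Plin3, another perilipin, was lower with LPS in low M-CSF in both genotypes, by 1.17 in knockout and 1.15 in wild-type macrophages (edgeR adjusted p = 1.83e-07 and 4.44e-07). Of 6 lipolysis genes tested among 11, 3 were lower and 1 higher with LPS in low M-CSF in each genotype, also near those shares.

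**Figure D3:**
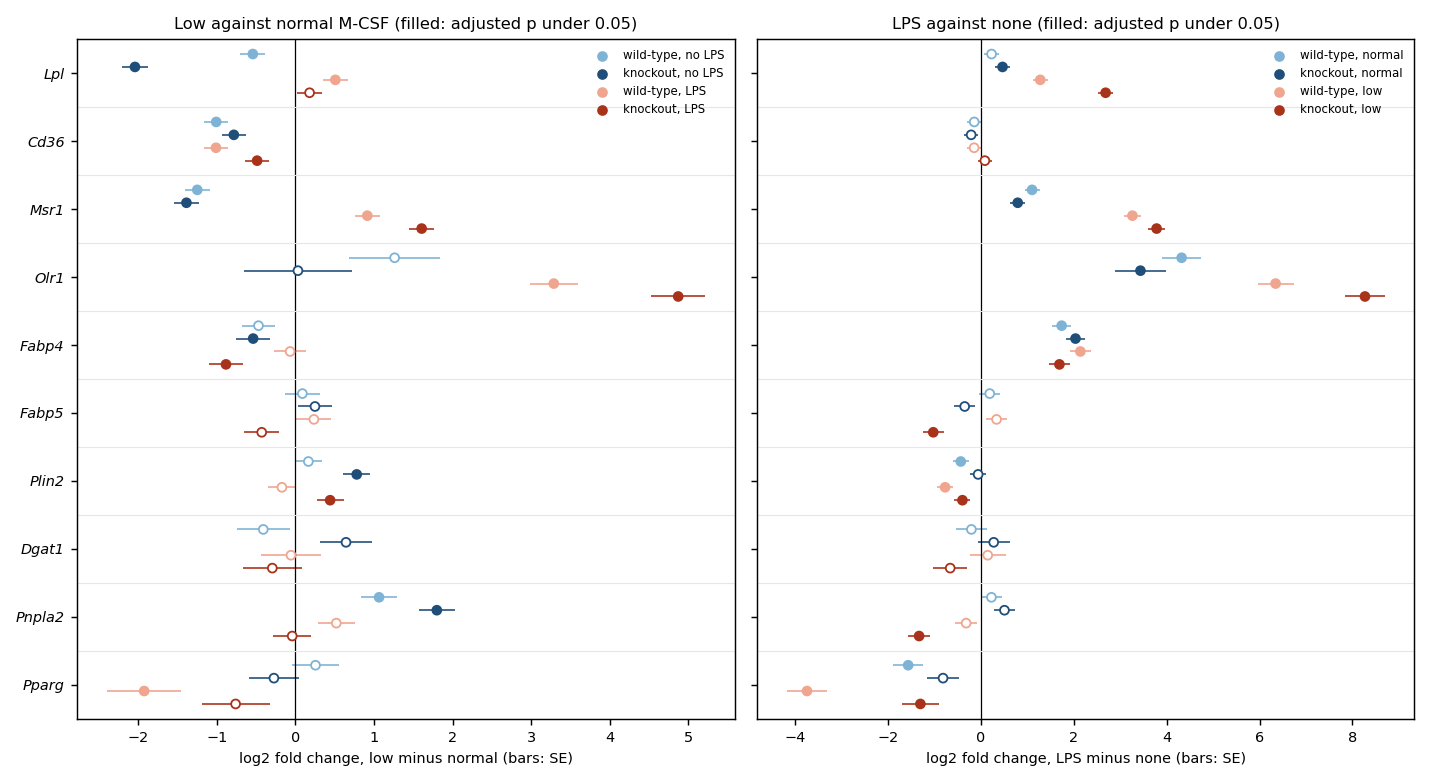
Log2 differences of low minus normal M-CSF (left) and of LPS minus none (right) for each gene in the 4 settings, with SE bars; filled points passed the edgeR test at an adjusted p of 0.05. The Msr1 points for the medium lie on both sides of 0, at -1.39 to -1.25 without LPS and at 0.92 to 1.61 with it, and Fabp4 lies between 1.69 and 2.14 in all 4 LPS comparisons. Under library totals alone 5 points for the medium and 9 for LPS fall on the other side of 0, and those that passed under either scaling are Lpl and Plin2 for the medium in knockout cells with LPS, Lpl for LPS in knockout cells in normal M-CSF and Cd36 for LPS in knockout cells in low M-CSF.

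Pparg was lower in knockout than in wild-type macrophages without LPS. Its gene lies on chromosome 6, from 115360879 to 115490404. In low M-CSF, knockout libraries held 5.16, 5.73, 8.43 and 9.38 CPM and wild-type libraries 30.3, 13.9, 29.5 and 21.0 CPM, from 34 to 173 and 109 to 238 counts. The groups did not overlap (log2 -1.70 ± 0.32, edgeR adjusted p = 0.000121), and the call stayed in pairs (0.028). The monocyte marker sum given above was likewise lower in these knockout libraries, though its 5 genes did not move together. Of the 5, 2 were lower, 1 was higher and 2 did not pass, where 16.7% of all genes passed. Their part was not tested. In normal M-CSF they held 7.44, 8.95, 8.20 and 10.7 against 16.7, 22.4, 20.6 and 19.7 CPM, without overlap (-1.18 ± 0.31, edgeR adjusted p = 0.0361). This call was lost without any one library except wild-type library 1 (0.0507 to 0.113), with a replicate block and in pairs (0.626).

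LPS lowered Pparg in wild-type macrophages in both media. In low M-CSF, wild-type libraries with LPS held 2.32, 0.826, 3.63 and 0 CPM, below all untreated libraries (log2 -3.75 ± 0.44, edgeR adjusted p = 2.33e-09), and in normal M-CSF 6.75, 6.95, 6.20 and 6.67 CPM (-1.57 ± 0.32, 0.000146). Knockout libraries in low M-CSF with LPS held 1.85, 4.66, 0.512 and 5.82 CPM and overlapped the untreated ones (-1.31 ± 0.41, edgeR adjusted p = 0.00503, lost at 0.0522 with the compared groups alone). In knockout cells in normal M-CSF the difference was -0.82 ± 0.34 and did not pass (edgeR adjusted p = 0.0526). It passed with RLE size factors (0.0366), no filter (0.0401), the compared groups alone (0.0127) and library totals alone (0.00113), with DESeq2 (adjusted p = 0.0094), and without untreated library 1 (0.0477). With LPS the genotype difference did not pass, at 3.21 ± 2.45 and 1.70 ± 1.61 CPM in knockout and wild-type macrophages in low M-CSF (0.74 ± 0.56, edgeR adjusted p = 0.376) and 5.02 ± 0.58 and 6.65 ± 0.32 CPM in normal M-CSF (-0.42 ± 0.35, 0.622). Among wild-type LPS groups, low M-CSF held less (-1.92 ± 0.47, edgeR adjusted p = 0.00101).

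Partners of PPARγ were a list of 15, of which 12 were tested. Low medium without LPS raised 10 of the 12 in knockout and 6 in wild-type macrophages, and the others did not pass, where 48.2% and 44.3% of all genes passed in either direction. The medium difference without LPS itself differed between genotypes for 1 of the 12, where 4.62% of all genes passed. With LPS in low M-CSF, 4 were higher and 7 lower in each genotype (67.5% of all genes passed in knockout and 60.7% in wild-type macrophages). Rxra, the receptor that pairs with PPARγ on DNA, stood at 52.9 ± 5.11 CPM in low and 14.8 ± 2.69 CPM in normal M-CSF in knockout cells without LPS (log2 1.84, edgeR adjusted p = 4.53e-07), and at 33.5 ± 3.86 and 12.4 ± 0.44 CPM in wild-type macrophages (1.43, 3.89e-05). With LPS in low M-CSF knockout macrophages held 4.14 ± 2.49 CPM and wild-type macrophages 2.19 ± 1.75 CPM (-3.76 and -3.90, edgeR adjusted p = 1.91e-12 and 1.48e-11). Ppard, a related receptor, was higher in low M-CSF without LPS in knockout cells, at 11.3 ± 0.63 against 4.32 ± 0.38 CPM (1.39, edgeR adjusted p = 0.000145). Ppara was not tested and stood at 0.18 CPM or less. Of 15 fatty acid oxidation genes tested among 17, 13 were lower and 1 higher with LPS in low M-CSF in knockout cells, and 11 were lower in wild-type macrophages, beside the same shares of all genes.

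Over all 7 lists, 80 of 109 genes were tested. Between genotypes 3 passed in normal M-CSF without LPS and 6 with it, 14 in low M-CSF without LPS (9 higher, 5 lower) and 13 with it (7 higher, 6 lower), beside 1.86%, 4.04%, 16.7% and 19.1% of all genes. The counts in low M-CSF lay near those shares. LPS in low M-CSF moved 68 in knockout cells (23 higher, 45 lower) and 60 in wild-type macrophages (22 higher, 38 lower), beside 67.5% and 60.7% of all genes.

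The interactions asked where one factor changed the effect of another. In low M-CSF, the LPS response differed between genotypes for 5 of the 10 members, where 16% of all genes passed: it was larger in knockout cells for Lpl (log2 1.41 ± 0.22, edgeR adjusted p = 5.17e-05) and Olr1 (1.93 ± 0.66, 0.0412), less negative for Pparg (2.44 ± 0.64, 0.00852), and lower for Fabp5 (-1.36 ± 0.32, 0.00331) and Pnpla2 (-1.01 ± 0.33, 0.0331). None of the 5 passed with libraries summed in pairs, that of Olr1 was also lost with library totals alone, and that of Pnpla2 with RLE size factors and the compared groups alone. In normal M-CSF the same interaction gave 0 of 10 members, 0 at an unadjusted p under 0.05 and 0 with DESeq2, where 0.534% of all genes passed. The medium interaction with LPS present was passed by Olr1 alone (1.58 ± 0.44, edgeR adjusted p = 0.031, lost at 0.181 in pairs), beside 5.49% of all genes. Msr1 also passed it with RLE size factors (0.75, edgeR adjusted p = 0.0429), the compared groups alone (0.72, 0.0444) and DESeq2 (0.75, adjusted p = 0.0132).

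The LPS response differed between media for 4 members in wild-type macrophages (23.6% of all genes passed) and for 4 in knockout cells (35.3%). Lpl, Msr1 and Olr1 rose more in low M-CSF in both genotypes, by 1.05 ± 0.22, 2.16 ± 0.23 and 2.02 ± 0.70 in wild-type macrophages and by 2.22 ± 0.23, 2.99 ± 0.23 and 4.84 ± 0.98 in knockout cells on the log2 scale. The remaining calls were Pparg in wild-type macrophages (-2.18 ± 0.56, edgeR adjusted p = 0.0044) and Pnpla2 in knockout cells (-1.84 ± 0.33, 5.52e-05). In knockout cells all 4 calls stayed with libraries in pairs, and in wild-type macrophages that of Msr1 stayed. That of Olr1 in wild-type macrophages was also lost with library totals alone.

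**Figure D4:**
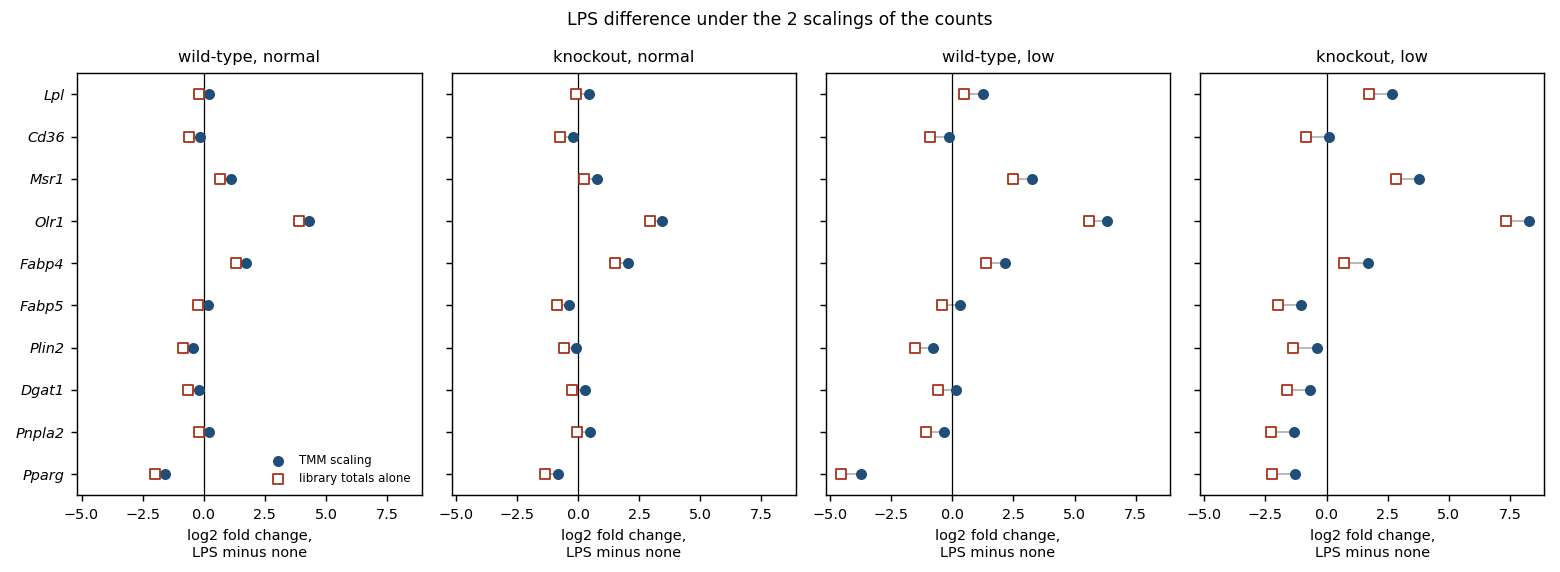
Log2 difference of LPS minus none for each gene in the 4 settings, with TMM scaling (filled circles) and with library totals alone (open squares), joined by a line. All squares lie to the left of their circles; Olr1, Msr1 and Fabp4 stay above 0 in all 4 panels, while Cd36 in knockout cells in low M-CSF moves from 0.08 to -0.86 and Lpl in knockout cells in normal M-CSF from 0.46 to -0.07.

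The 10 genes spanned different ranges between their highest and lowest group means under TMM scaling: 401-fold for Olr1, 14.1-fold for Lpl, 14-fold for Pparg, 13.8-fold for Msr1, 6.42-fold for Fabp4, 3.46-fold for Pnpla2, 2.39-fold for Plin2, 2.36-fold for Cd36, 2.04-fold for Fabp5 and 1.87-fold for Dgat1. Those of Olr1 and Pparg divide by groups with few counts, 0 to 6 and 0 to 9 per library, so their sizes are uncertain. The spans and their order depended on scaling. By library totals alone they were 212-fold for Olr1, 24.7-fold for Pparg, 9.23-fold for Lpl, 7.13-fold for Msr1, 5.16-fold for Fabp4, 4.82-fold for Pnpla2, 4.63-fold for Cd36, 4.06-fold for Plin2, 3.9-fold for Fabp5 and 3-fold for Dgat1. Under TMM, knockout cells in low M-CSF without LPS were the lowest group for 5 of them, Lpl, Cd36, Msr1, Olr1 and Fabp4, and of these Lpl alone did not overlap the next group. With library totals alone the lowest Cd36 group was instead knockout cells in low M-CSF with LPS, at 149 against 269 CPM without LPS, and the lowest group stayed for the other 4. The same cells without LPS were the highest group for Fabp5, Plin2, Dgat1 and Pnpla2 under both scalings, and of these, under TMM, Pnpla2 alone did not overlap the next. The gene most alike in its pattern over the 32 libraries, by Pearson's r of log2 CPM, was Col18a1 for Lpl (0.945), Ilf2 for Cd36 (0.881), Gk for Msr1 (0.974), Rin2 for Olr1 (0.974), Ccl9 for Fabp4 (0.96), P2rx7 for Plin2 (0.834), Cmtm7 for Dgat1 (0.708), Ucp2 for Pnpla2 (0.881) and Camk2g for Pparg (0.849). These are descriptions across libraries that share groups and scaling.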

How the data were processed

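RNA of bone marrow-derived macrophages was measured by 3' sequencing: per the labels' protocols, mRNA was captured on oligo-dT beads, primed with barcoded oligo-dT, pooled and amplified without molecular identifiers. The authors deposited raw counts per gene, not normalised. The submitters' processing notes name STAR, HTSeq, DESeq2 and mm10. Annotation and strand setting are not given in the sources used here, so reads of overlapping genes cannot be told apart. Symbols came from RefSeq by Entrez identifier and matched 96.3% of identifiers, with 99.5% of counts.

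Groups came from the library titles. Counts were filtered with filterByExpr, scaled by TMM and tested with the two-sided quasi-likelihood test of edgeR 4.0.16 (R 4.3.3) in 1 model of 8 group means, for 12 pairwise comparisons and 6 interactions. The script was tested on simulated data. Alternatives were RLE size factors, DESeq2 1.42.0, no filter, the compared groups alone, a replicate block, libraries summed in pairs, each library left out and, added after seeing the data, library totals alone. Named genes were the 10 members, Trem2, fixed role partners, the 3 pathway genes with the largest passing change in each family of comparisons, and the gene most correlated with each member (that for Fabp5 is not reported here). Members and lists were chosen with earlier results of these data known. Depth, 3068863 to 15585423 counts, limits mainly Olr1, Pparg and Dgat1.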

Additional observations from a re-analysis of the deposited data

Results flagged for a closer look

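Of 60 tests of whether a factor changed the effect of another on a member gene, 15 passed the edgeR test, and each is listed because the effects of the 2 groups differed by a direct test. Beside these calls, 4.62% and 5.49% of all genes passed for genotype by medium without and with LPS. For genotype by LPS, 0.534% of all genes passed in normal and 16% in low M-CSF. For medium by LPS, 23.6% of all genes passed in wild-type macrophages and 35.3% in knockout cells. Values in brackets are log2 differences of differences. The genotype difference of Lpl varied with the medium without LPS (-1.5), and that of Olr1 did with LPS (1.58). The LPS response in low M-CSF varied with genotype for Lpl (1.41), Olr1 (1.93), Fabp5 (-1.36), Pnpla2 (-1.01) and Pparg (2.44). The LPS response of wild-type macrophages varied with the medium for Lpl (1.05), Msr1 (2.16), Olr1 (2.02) and Pparg (-2.18), and that of knockout cells for Lpl (2.22), Msr1 (2.99), Olr1 (4.84) and Pnpla2 (-1.84).

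Among these, 4 lost their call when any one of several libraries was left out. Olr1 by genotype and LPS lost its call when any one of 9 of 16 libraries was left out: untreated knockout 1 or 3, LPS knockout 1 or 2, untreated wild-type 1, 3 or 4, or LPS wild-type 2 or 4 (1.69 to 1.98, edgeR adjusted p = 0.0518 to 0.109). Olr1 by genotype and medium lost it without low-medium knockout 2, normal-medium knockout 3 or 4, or normal-medium wild-type 2 or 4 (1.30 to 1.56, 0.0533 to 0.0889). Olr1 by medium and LPS in wild-type macrophages lost it without untreated low-medium library 2, LPS low-medium library 1, or untreated normal-medium library 2 or 3 (1.56 to 1.90, 0.0518 to 0.192). Pnpla2 by genotype and LPS lost it without untreated knockout 1 or 3, LPS knockout 1 or 2, untreated wild-type 2, or LPS wild-type 2 or 4 (-0.998 to -0.815, 0.0528 to 0.0861). No library stood apart from its group by the gap test in the 80 member and group combinations.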

How the results depend on the processing

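Of 180 member results, 71 passed and 41 of these kept direction and call in every setting. Library totals alone reversed Cd36 in knockout cells (-0.86) and Apoc2 in wild-type macrophages (-0.71) for LPS in low M-CSF, Lpl for LPS in knockout cells in normal M-CSF (-0.0676), and Lpl (-0.38) and Plin2 (-0.11) for the medium in knockout cells with LPS. These hold all members called under either scaling whose sign changed, and 14 more member differences, called under neither, changed sign with it. Over all settings, 29 of the 109 uncalled member results changed sign without a call. Library totals alone raised the members passing to 8 for the medium in knockout cells with LPS and to 8 for the interaction of medium and LPS in knockout cells. Over all genes the calls there went from 6660 to 7169 and from 3971 to 5251. This scaling also lowered the share of higher calls over all genes in the LPS comparisons from between 39.2% and 50.6% to between 17% and 21.5%. The share of higher calls between genotypes in low M-CSF with LPS went from 42.9% to 22.6% with library totals and 53.2% with RLE size factors.

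With libraries summed in pairs, members passing between genotypes were 0 and 0 in normal M-CSF, 2 in low M-CSF without LPS and 1 with it, 3 for the medium in knockout cells with LPS, 1 for medium and LPS in wild-type macrophages, and 0 for genotype by LPS in low M-CSF and for genotype by medium without and with LPS. Over all genes, pairs left 39, 43, 621 and 485 calls between genotypes, against 209, 454, 1879 and 2147, and 2969, 3327 and 3539 for the medium (against 4983, 5132 and 5422), 2594 for LPS in wild-type macrophages in normal M-CSF (4061), and 97, 1, 0, 91, 853 and 1702 for the 6 interactions (against 519, 617, 60, 1800, 2649 and 3971), in the order genotype by medium without and with LPS, genotype by LPS in normal and low M-CSF, and medium by LPS in wild-type and knockout cells. The medium values are those of wild-type macrophages without and with LPS and of knockout cells without it. The compared groups alone gave 866 calls between genotypes in normal M-CSF with LPS and 1037 in low M-CSF with LPS. They gave 959 for genotype by LPS in low and 120 in normal M-CSF. DESeq2 gave 359 and 687 between genotypes in normal M-CSF, 945 for genotype by medium with LPS and 194 for genotype by LPS in normal M-CSF. For the last, no filter gave 102 and library totals 96. Genotype by medium with LPS had 2 members passing, Olr1 and Msr1, with compared groups alone, with DESeq2 and with RLE. The cause of these shifts was not tested, except that pairs leave fewer samples.

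Leaving out 1 library gave 2 to 5 members passing between genotypes in low M-CSF without LPS, 1 to 2 in normal M-CSF without LPS, 1 to 3 with LPS, 3 to 5 for genotype by LPS in low M-CSF and 0 to 2 for genotype by medium with LPS. Replicate numbers did not clearly pair the libraries: same-numbered deviations correlated at -0.305 to 0.269, and no comparison had all 4 above 0.1. Between genotypes in normal M-CSF with LPS, however, each library matched its own number best, at 0.0491 to 0.138. For LPS in wild-type macrophages in normal M-CSF all 4 correlations were positive, at 0.0762 to 0.269. With a replicate block, members passing between genotypes in normal M-CSF without LPS went to 1.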
